A study of Mus musculus with 9 samples.

Results

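The genes described here are the insulin-like growth factors Igf1 and Igf2, their receptors Igf1r and Igf2r, and the binding proteins Igfbp2, Igfbp3, Igfbp4, Igfbp5, Igfbp6 and Igfbp7. They were taken by symbol and make up 10 of the 22092 genes with a counted transcript. Insulin-like growth factors are secreted peptides that promote growth, survival and metabolism through a receptor tyrosine kinase, Igf1r, while Igf2r, also known as the cation-independent mannose 6-phosphate receptor, takes up IGF2 and delivers it to lysosomes. Secreted binding proteins hold both peptides in the extracellular space, prolong or block their action, and release them when cleaved by proteases. In the adult brain, Igf2 is known as a product of the choroid plexus, the leptomeninges and vessel-associated cells, and Igfbp2 as a product of astrocytes and choroid plexus.

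The libraries were made by translating ribosome affinity purification (TRAP), which is meant to capture RNA bound to GFP-tagged ribosomes. They came from tg:Aldh1L1-L10aGFP transgenic mice of 2 months, in which the Aldh1l1 promoter drives the L10a-eGFP ribosomal protein in astrocytes. Whole astrocyte TRAP was made in 3 libraries, each from a single whole brain. Endfeet TRAP came from purified brain vessels, which keep the perivascular endfeet of astrocytes on their surface, in 6 libraries pooled from several mice each. Mice of both groups carried the transgene, and no further treatment was given in the labels. The question was which mRNAs are bound to ribosomes in the endfeet compared with the whole astrocyte.

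Totals of gene counts were 35984144 to 43521208 in whole astrocyte TRAP and 2319495 to 13450588 in endfeet TRAP, with endfeet library 6 the shallowest. A floor of 3 counts stood for at most 0.0834 CPM (counts per 1000000 gene counts of a library) in whole astrocyte TRAP and at most 1.29 CPM in endfeet TRAP, and covers counting error only. Endothelial and mural marker genes were higher in endfeet TRAP for 12 of 12 genes of each list, with summed levels of 2837 to 6249 CPM against 8.004 to 9.91 CPM for endothelial cells and of 3053 to 8207 CPM against 58.3 to 74.2 CPM for mural cells. The same was found for 12 of 12 genes of fibroblasts and meningeal cells, at 1674 to 3241 CPM against 90.6 to 148 CPM, for 8 of 12 genes of microglia and macrophages, at 231 to 438 CPM against 34.8 to 39.6 CPM, and for 9 of 12 genes of choroid plexus and ependymal cells, at 6970 to 74320 CPM against 111 to 1659 CPM. No gene of these lists was at 0 in every library of a group. Astrocyte genes, with 12 of 12 tested, were higher for 1 and lower for 5, and summed to 11968 to 31846 CPM against 25543 to 27445 CPM. Neuron genes were lower for 4 of 12 and higher for 0, and oligodendrocyte genes were higher for 1 and lower for 1 of 12. The part of these markers in the results given here was not tested. A difference in bulk RNA cannot tell more cells or processes of a type from more ribosome-bound RNA per cell. Nor can it tell either of these from RNA that was not bound to tagged ribosomes.

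Of the 10 genes, 9 were higher in endfeet TRAP than in whole astrocyte TRAP, 0 were lower, and Igfbp6 was not past the threshold (edgeR's quasi-likelihood test over 14427 genes, Benjamini-Hochberg adjusted p of at most 0.05). Among all genes tested, 20.7% were higher and 13.9% lower. The median log2 fold change of the 10 genes was 3.20, beside 0.10 over all genes tested. The same 9 genes had all 6 endfeet libraries above all 3 whole astrocyte libraries, a pattern found in 17.7% of the genes tested, and 25.7% of the genes tested had all endfeet libraries below. For 0 of the 10 genes was a decrease found by DESeq2 or limma voom either, or at an unadjusted p under 0.05.

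**Figure D1:**
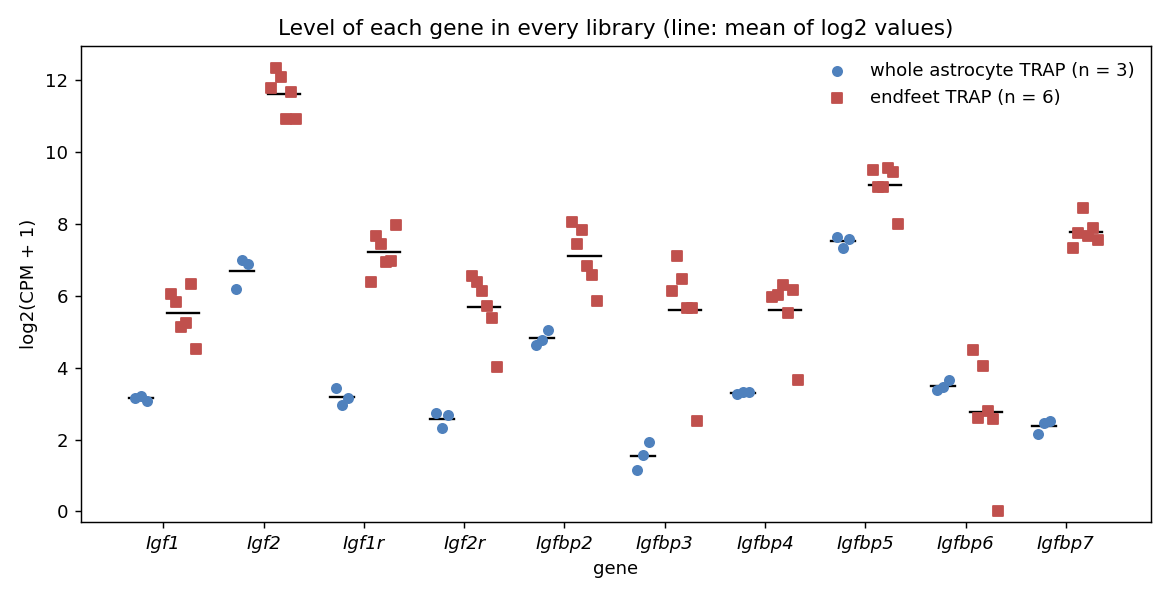
Level of the 10 genes in each library as log2(CPM + 1), with whole astrocyte TRAP libraries as blue circles (n = 3), endfeet TRAP libraries 1 to 6 from left to right as red squares (n = 6), and black lines at the mean of each group. The squares lie above the circles for every gene but Igfbp6, whose squares lie on both sides and reach 0 in endfeet library 6.

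Igf2 was the most abundant of the 10 mRNAs in endfeet TRAP when counts were divided by transcript length. It encodes the fetal growth factor IGF2 and is an imprinted gene, expressed from the paternal allele in most tissues and from both alleles in choroid plexus and leptomeninges. The gene lies on the minus strand of mm10 at chr7:142650766-142666816. Its level was 71.5, 126 and 118 CPM in whole astrocyte libraries 1, 2 and 3, and from 1919 CPM through a median of 3366 CPM to 5149 CPM in endfeet TRAP. The lowest endfeet library was thus far above the highest whole astrocyte library, and whole astrocyte library 1 was the lowest of its group. Igf2 differed by a log2 fold change of 5.08 (SE 0.44), or 33.8-fold, with an adjusted p of 2.9e-06 in edgeR's quasi-likelihood test. By level per transcript length, Igf2 ranked 19 among the 22092 genes in endfeet TRAP and 2655 in the whole astrocyte libraries.

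Counts on the 9 deposited Igf2 transcripts gave the same direction. All 9 were past the threshold when transcripts were tested as separate features, with log2 fold changes of 4.72 to 5.20. A read was counted on every transcript it overlapped, so these values share reads. Igf2-204 and Igf2-205 held 99.7% to 100.4% of the counts of Igf2-201 in each library. The share of all transcripts past the threshold in that fit is not given here, for Igf2 or for the other genes below. The transcript that stood for the gene, Igf2-201, has 3708 exonic bases, of which 3596 also belong to Gm49394, a gene on the same strand that was not analysed here. Reads of these overlapping genes cannot be told apart. The antisense gene Igf2os and Mir483 also lie within the locus but share 0 exonic bases with Igf2-201, and neither was analysed here. Ins2, an insulin gene next to Igf2, was at 0 to 2.38 CPM in the endfeet libraries and at most at 0.0832 CPM in the others, and was not tested.

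Igf1, which encodes the growth factor that mediates much of the action of growth hormone, was less abundant per length. Whole astrocyte libraries held 7.84, 8.27 and 7.42 CPM, and endfeet libraries held 21.99 CPM at the lowest, 46.2 CPM at the median and 78.8 CPM at the highest. The groups did not overlap, and endfeet library 6 was the lowest endfeet library. Igf1, at chr10:87858265-87937042 on the plus strand, differed by a log2 fold change of 2.75 (SE 0.54) with an adjusted p of 0.00163 in edgeR's quasi-likelihood test.

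Of the 8 Igf1 transcripts, 2 were past the threshold as separate features, namely Igf1-202, which is the longest at 7052 bases and stood for the gene, and Igf1-203. The other 6 transcripts had adjusted p from 0.176 to 0.212 in edgeR's quasi-likelihood test, and their counts were low. In endfeet library 1 they held 0 to 1 counts each, where Igf1-202 held 421, and in endfeet library 3 they held 77 to 107, where Igf1-202 held 452. The Igf1 counts of endfeet library 1 thus came almost wholly from sequence that these 6 transcripts lack. The antisense gene Igf1os overlaps the Igf1 locus with 0 exonic bases shared with Igf1-202.

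The ratio of Igf2 to Igf1, both divided by transcript length, was 17.3, 29.0 and 30.1 in whole astrocyte libraries 1 to 3. In endfeet TRAP it ran from 78.0 to 243, with a mean of 145 ± 62.3 (SD, n = 6) against 25.5 ± 7.09 (SD, n = 3). Every endfeet library was above every whole astrocyte library, so Igf2 outweighed Igf1 in both groups and by more in endfeet TRAP.

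**Figure D2:**
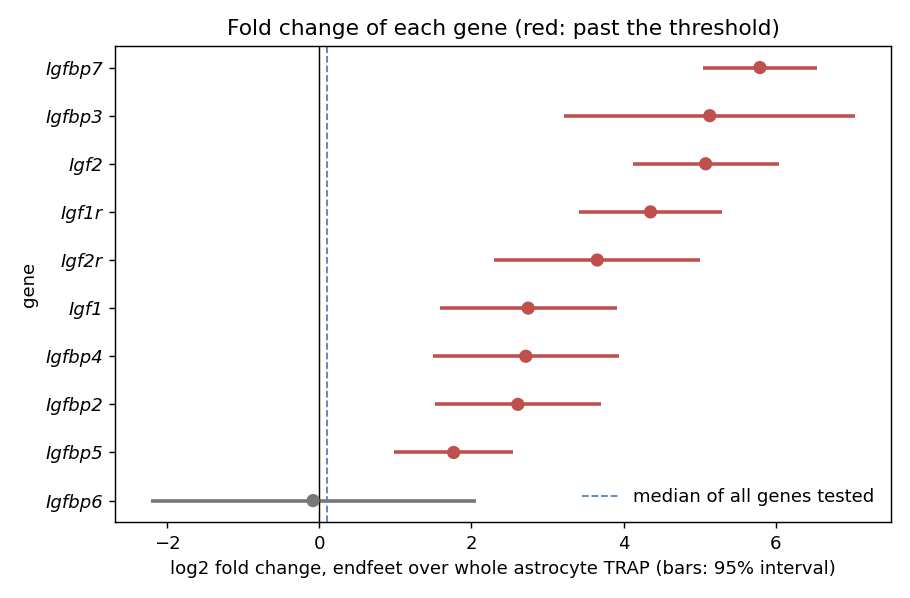
Log2 fold change of each gene between endfeet TRAP (n = 6) and whole astrocyte TRAP (n = 3) with its 95% interval, red where past the threshold and grey where not, with a dashed line at the median of all genes tested. Values run from 1.77 for Igfbp5 to 5.79 for Igfbp7 among the called genes, and the interval of Igfbp6 spans 0.

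Igf1r, the signalling receptor of both peptides, was at 9.78, 6.71 and 7.93 CPM in whole astrocyte TRAP. Endfeet TRAP held 82.0 CPM at the lowest, 148 CPM at the median and 249.2 CPM at the highest. The groups did not overlap, and the highest value was that of endfeet library 6, which was the lowest endfeet library for Igf1, Igf2r, Igfbp2, Igfbp3, Igfbp4, Igfbp5 and Igfbp6. The log2 fold change of Igf1r, at chr7:67952827-68233668, was 4.35 (SE 0.43) with an adjusted p of 8.2e-06 in edgeR's quasi-likelihood test.

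Igf2r, the clearance receptor, was at 5.61, 3.995 and 5.42 CPM in whole astrocyte TRAP and at 15.1 CPM at the lowest, 59.9 CPM at the median and 91.8 CPM at the highest in endfeet TRAP. All 6 endfeet libraries lay above the whole astrocyte libraries, with the lowest value in endfeet library 6, from 35 counts. The log2 fold change was 3.65 (SE 0.63) with an adjusted p of 6.1e-04 in edgeR's quasi-likelihood test. Igf2r, at chr17:12682406-12769664, overlaps the antisense gene Airn, with 0 exonic bases shared with the counted transcript. Airn was not analysed here.

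Per transcript length, the ratio of Igf2r to Igf1r was 0.737 to 0.878 in whole astrocyte TRAP and 0.0777 to 1.44 in endfeet TRAP, so the groups overlapped. Insr, the insulin receptor, which forms hybrid receptors with Igf1r, was higher in endfeet TRAP as well, at 303.9 ± 121 CPM (SD, n = 6) against 31.8 ± 5.09 CPM (SD, n = 3), a log2 fold change of 3.37 with an adjusted p of 6.8e-05 in edgeR's quasi-likelihood test. The per-length ratio of Igf1r to Insr was 0.185 to 0.233 in whole astrocyte TRAP. It was 0.153 in endfeet library 1 and 1.21 in endfeet library 6, so these groups overlapped too.

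Among the binding proteins, 5 of 6 were higher in endfeet TRAP. Igfbp7 had the largest log2 fold change, and Igfbp6 alone was not past the threshold. Igfbp7 binds IGFs with low affinity and is deposited in vascular basement membranes, while Igfbp6 binds IGF2 in preference to IGF1. To show the genes at both ends of this range, the 250 bases before their RefSeq start sites and that of the counted Igf2 transcript are shown, read 5′ to 3′ along the strand of the gene from the RefSeq annotation of GRCm38.p6, the same build as mm10. Capitals mark the letters of the GC box, GGGCGG, in Igf2 and Igfbp7, and those of the TATA box, TATAAA, in Igfbp6. Each was searched on both strands, so that CCGCCC and TTTATA also count, at any place in the window.
Igf2 at chr7:142657497-142657746, minus strand: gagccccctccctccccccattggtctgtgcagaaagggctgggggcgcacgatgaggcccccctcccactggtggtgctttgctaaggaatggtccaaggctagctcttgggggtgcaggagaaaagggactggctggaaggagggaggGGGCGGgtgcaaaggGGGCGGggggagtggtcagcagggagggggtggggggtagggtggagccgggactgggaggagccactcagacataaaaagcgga
Igfbp7 at chr5:77408046-77408295, minus strand: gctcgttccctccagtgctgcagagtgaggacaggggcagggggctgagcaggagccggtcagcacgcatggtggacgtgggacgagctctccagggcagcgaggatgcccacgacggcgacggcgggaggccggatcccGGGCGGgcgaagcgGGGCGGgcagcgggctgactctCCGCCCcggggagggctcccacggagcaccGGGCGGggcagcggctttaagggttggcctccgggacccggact
Igfbp6 at chr15:102143936-102144185, plus strand: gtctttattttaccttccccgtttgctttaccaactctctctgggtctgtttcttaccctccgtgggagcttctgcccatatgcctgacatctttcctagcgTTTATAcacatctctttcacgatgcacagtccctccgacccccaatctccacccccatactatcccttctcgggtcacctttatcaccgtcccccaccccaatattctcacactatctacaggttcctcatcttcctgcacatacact

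The Igf2 window held 2 matches to GGGCGG and ended directly before the first base of the counted transcript. The Igfbp7 window held 4 matches to GGGCGG, and the Igfbp6 window held 0 of these and 1 match to TATAAA. That match reads TTTATA and lies nearer to the upstream end of its window than to the start site. It was not shown to be a working TATA box. Over all 10 genes there were 14 promoter entries, of which 6 held GGGCGG and 2, those of Igfbp4 and Igfbp6, held TATAAA. The windows of the called genes Igf1, Igfbp3, Igfbp4 and Igfbp5 held 0 matches to GGGCGG, as did that of Igfbp6. Those of Igf1r and Igf2r held 2 and 3, those of Igfbp2 held 3 and 0, and the other Igf2 windows held 0, 0 and 1. A relation of these letters to the fold changes was not tested. Among all 32851 promoter entries of the table, 32.7% held GGGCGG and 12.4% held TATAAA within the same 250 bases. A match describes the letters in the window and no binding was measured here. The Igfbp6 start site in RefSeq lay 176 bases before the start of the counted transcript.

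Igfbp7, at chr5:77349240-77408041, was at 3.42, 4.52 and 4.76 CPM in whole astrocyte TRAP and at 161 CPM at the lowest, 209 CPM at the median and 344 CPM at the highest in endfeet TRAP. The endfeet libraries were closer to each other than for any of the other 9 genes, with a coefficient of variation of 28.5%. Igfbp7 differed by a log2 fold change of 5.79 (SE 0.35), or 55.3-fold, with an adjusted p of 1.8e-07 in edgeR's quasi-likelihood test. Of the 1200 exonic bases of its transcript, 77 overlap Polr2b, a subunit of RNA polymerase II on the opposite strand. Strand was not stated for these libraries, so reads in these bases cannot be told apart. Polr2b itself was at 101.5 CPM in endfeet TRAP and 96.7 CPM in whole astrocyte TRAP.

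Igfbp3, the main carrier of IGFs in blood together with the acid-labile subunit Igfals, was low in the whole astrocyte. Its level there was 1.22, 1.97 and 2.78 CPM, and endfeet TRAP held 4.74 CPM at the lowest, 59.7 CPM at the median and 136 CPM at the highest. The lowest endfeet value came from 11 counts in library 6 and was still above the whole astrocyte libraries. The log2 fold change of Igfbp3, at chr11:7206086-7213923, was 5.13 (SE 0.89) with an adjusted p of 6.5e-04 in edgeR's quasi-likelihood test. Igfbp1, which lies 3539 bases from Igfbp3, had no count in 8 of the 9 libraries.

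Igfbp2 prefers IGF2 and was at 24.0, 26.2 and 32.0 CPM in whole astrocyte TRAP. It reached 57.3 CPM at the lowest, 143 CPM at the median and 264 CPM at the highest in endfeet TRAP. Its neighbour Igfbp5, 5457 bases away on chromosome 1 on the opposite strand, binds extracellular matrix and was at 198, 159 and 189 CPM in whole astrocyte TRAP and at 254, 608 and 749 CPM at the lowest, median and highest in endfeet TRAP. Both genes had non-overlapping groups. Igfbp2, at chr1:72824503-72852474, had a log2 fold change of 2.61 (SE 0.50) and an adjusted p of 0.00146 in edgeR's quasi-likelihood test. Igfbp5, at chr1:72857932-72874884, had the smallest change among the called genes, with a log2 fold change of 1.77 (SE 0.36) and an adjusted p of 0.00214 in the same test.

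Igfbp4, an inhibitor of IGF action that is inactivated by the protease Pappa, was at 8.56, 9.02 and 9.01 CPM in whole astrocyte TRAP and at 11.6, 62.8 and 77.8 CPM at the lowest, median and highest in endfeet TRAP. The lowest value, in endfeet library 6, came from 27 counts and was just above the whole astrocyte libraries. The log2 fold change of Igfbp4, at chr11:99041244-99054392, was 2.72 (SE 0.57) with an adjusted p of 0.00245 in edgeR's quasi-likelihood test. Of its 6 transcripts, 1 was past the threshold as a separate feature.

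Igfbp6, at chr15:102144362-102149511, was the exception. Whole astrocyte libraries held 9.39, 9.99 and 11.7 CPM, while the endfeet libraries held 0 CPM at the lowest, 5.54 CPM at the median and 21.7 CPM at the highest. Endfeet libraries 1 and 3 lay above the whole astrocyte libraries and the other 4 below them. The value of 0 in endfeet library 6 allows up to 1.29 CPM. The log2 fold change was -0.08 (95% interval -2.21 to 2.05) with an adjusted p of 0.958 in edgeR's quasi-likelihood test, so that a difference as large as that of Igfbp5, in either direction, lay within the interval and was not detectable at this depth and spread.

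Per transcript length, the 6 binding proteins made up a mix that is described here without a test. Igfbp7 was 5.25% ± 0.846 (SD, n = 3) of their summed level in whole astrocyte TRAP and 43.2% ± 12.3 (SD, n = 6) in endfeet TRAP, higher in every endfeet library. Without division by length, Igfbp7 was 1.82% and 22.2%, and Igfbp5 was then the largest share in both groups, at 77.4% and 52.8%. Per length, Igfbp5 was 45.2% ± 4.597 (SD, n = 3) in whole astrocyte TRAP and 21.5% ± 6.21 (SD, n = 6) in endfeet TRAP, lower in every endfeet library although its own level was higher there. The share of Igfbp6 was 13.8% ± 0.802 (SD, n = 3) and 1.55% ± 1.297 (SD, n = 6), again lower in every endfeet library. The shares of Igfbp2, at 31.1% ± 2.66 (SD, n = 3) and 25.0% ± 8.31 (SD, n = 6), overlapped, as did those of Igfbp3 and Igfbp4.

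**Figure D3:**
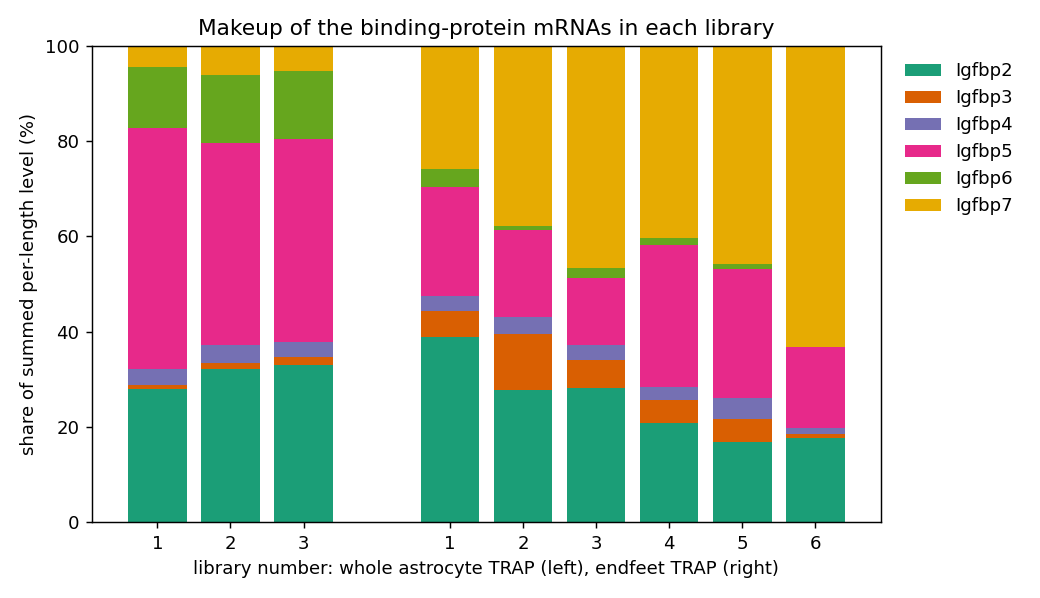
Share of each binding protein in the summed per-length level of the 6 binding proteins, as a stacked bar that sums to 100% for each of the 3 whole astrocyte TRAP libraries (left) and the 6 endfeet TRAP libraries (right). Igfbp5 is the largest part of each bar on the left, and Igfbp7 takes 25.8% to 63.2% of the bars on the right.

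The summed per-length level of Igf1 and Igf2 relative to that of the 6 binding proteins was 0.312, 0.564 and 0.443 in whole astrocyte libraries 1 to 3. Endfeet TRAP ranged from 1.25 to 2.93, with a mean of 2.02 ± 0.546 (SD, n = 6), so ligand mRNA exceeded binding-protein mRNA in every endfeet library and in 0 of 3 whole astrocyte libraries. Since Igf2 made up nearly all of the ligand level, this ratio follows Igf2.

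The order of the 10 genes by per-length level (counts per kilobase of transcript, scaled like CPM within each library) also differed. In endfeet TRAP the order of the means was Igf2 at 2890, Igfbp7 at 602, Igfbp2 at 373, Igfbp5 at 308, Igfbp3 at 87.6, Igfbp4 at 45.8, Igf1r at 45.3, Igfbp6 at 24.6, Igf1 at 22.1 and Igf2r at 20.9. Among neighbours in this order, the ranges over libraries of Igf2 and Igfbp7 were apart, and the ranges of every other pair overlapped. In whole astrocyte TRAP the order was Igfbp5 at 82.4, Igf2 at 76.6, Igfbp2 at 56.7, Igfbp6 at 25.2, Igfbp7 at 9.55, Igfbp4 at 6.27, Igf1 at 3.02, Igfbp3 at 2.22, Igf1r at 1.94 and Igf2r at 1.53. Here the ranges of Igfbp2, Igfbp6, Igfbp7, Igfbp4 and Igf1 did not overlap with those of their neighbours within this run, while those of Igfbp5, Igf2 and Igfbp2, and those from Igf1 to Igf2r, overlapped from neighbour to neighbour. Igf2r had the lowest mean level per length in both groups, although in endfeet TRAP it lay above Igf1 in 4 of 6 libraries. Igfbp7 stood at rank 8947 among all genes for the whole astrocyte and at rank 139 for the endfeet.

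Within endfeet TRAP the genes differed in how they varied. Endfeet libraries 1 to 3 and 4 to 6 carry numbers of different series in the deposited files, with no meaning given for them. Igf2, Igf2r, Igfbp2 and Igfbp3, 4 of the 10 genes, were higher in each of libraries 1 to 3 than in each of libraries 4 to 6, a pattern found in 6.28% of 13483 genes. The means of libraries 1 to 3 and of 4 to 6 were 4331 and 2365 CPM for Igf2, 81.1 and 35.7 CPM for Igf2r, 221 and 88.2 CPM for Igfbp2, and 98.0 and 34.6 CPM for Igfbp3. The other 6 genes overlapped, and for Igf1r and Igfbp7 the means were 152 and 165 CPM, and 240 and 208 CPM. In edgeR's quasi-likelihood test between these library sets, 0 of 13483 genes passed an adjusted p of 0.05, and 4.61% had an unadjusted p under 0.05, with Igfbp2 at an unadjusted p of 0.00768 and Igf2 at 0.0306.

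The summed level of the choroid plexus and ependymal marker list was also higher in each of libraries 1 to 3 than in each of libraries 4 to 6, while gene by gene this held for 2 of its 12 genes, as for 2 of 12 mural genes. The sum was 74320, 40142 and 30208 CPM in endfeet libraries 1 to 3 and 13794, 6970 and 17647 CPM in libraries 4 to 6, mostly from Ttr, the thyroid hormone carrier transthyretin that choroid plexus makes in large amounts. Without Ttr, the list summed to 3301, 1607 and 1037 CPM and to 867, 520 and 920 CPM. In whole astrocyte TRAP the list summed to 111 CPM in library 1 and to 1659 and 1357 CPM in libraries 2 and 3. Library 1 was also the lowest for Igf2, Igfbp2, Igfbp3, Igfbp4, Igfbp6 and Igfbp7. It was the highest for Igf1r, Igf2r and Igfbp5, with Igf2r at 5.61 CPM against 3.995 and 5.42 CPM, and in the middle for Igf1. Among endfeet libraries 4 to 6, library 6 had the highest sum but the lowest Igf2r, Igfbp2 and Igfbp3. Library 5 had the lowest sum but the highest Igf2 of these libraries, at 3233 CPM. The fibroblast and meningeal marker list summed to 3076, 2741 and 2375 CPM in endfeet libraries 1 to 3. In endfeet libraries 4 to 6 that list summed to 1881, 3241 and 1674 CPM, with library 5 the highest, as for Igf2. Whole astrocyte libraries 1 to 3 held 90.6, 142 and 148 CPM of it, with library 1 the lowest, again as for Igf2. The methods state removal of the choroid plexus next to the whole brain extraction, and not separately for the vessels. The part of choroid plexus RNA, or of fibroblast and meningeal RNA, in the levels of Igf2, Igf2r, Igfbp2 and Igfbp3 was not tested. Against the whole astrocyte libraries, endfeet libraries 4 to 6 alone gave log2 fold changes of 4.45 for Igf2, 2.79 for Igf2r, 1.65 for Igfbp2 and 4.06 for Igfbp3. All were past the threshold, while the median of all genes was -0.15 in that fit. These endfeet libraries still held 6970 to 17647 CPM of the marker list, against 111 to 1659 CPM in whole astrocyte TRAP. The fit therefore does not remove choroid plexus RNA and cannot measure its part.

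**Figure D4:**
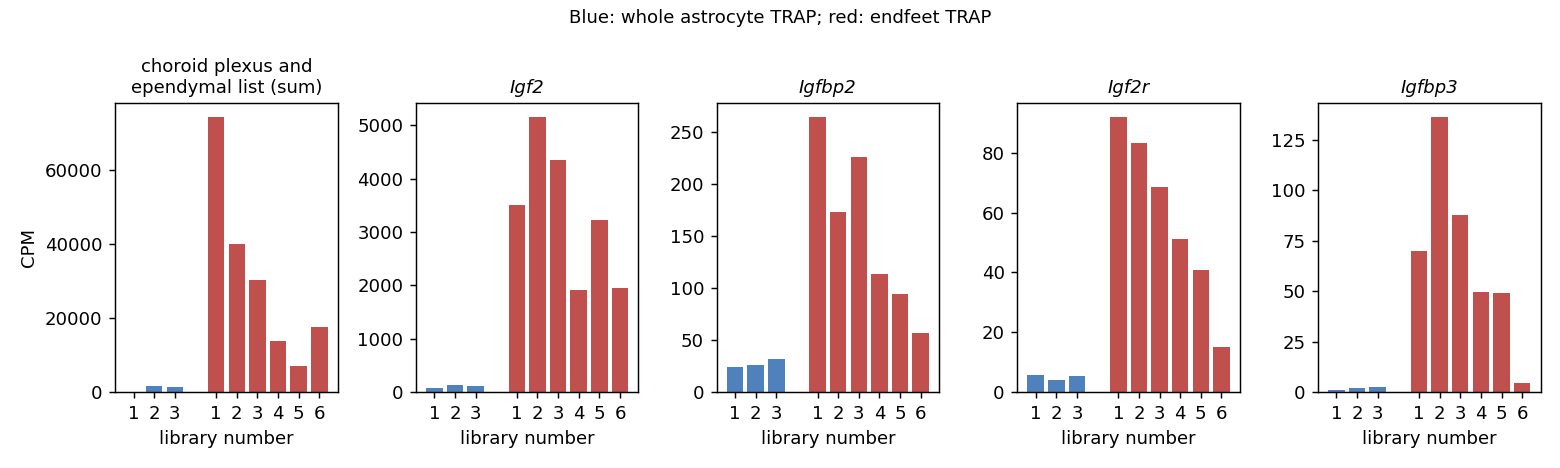
CPM in each library of the summed choroid plexus and ependymal marker list and of Igf2, Igfbp2, Igf2r and Igfbp3, with blue bars for whole astrocyte TRAP libraries 1 to 3 and red bars for endfeet TRAP libraries 1 to 6. In every panel each of endfeet libraries 1 to 3 is above each of endfeet libraries 4 to 6, and the blue bars are lower than every red bar.

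Genes with the most similar course over the 9 libraries were found by the root mean square difference of mean-centred log2(CPM + 1), over 14426 genes. For Igf2 they were Ace at 0.246, Uaca at 0.274 and Col18a1 at 0.312, and for Igfbp7 they included C130074G19Rik at 0.201 and Prom1 at 0.212. Igf1r was nearest to Il17rd, Arhgap29 and Ikzf1 (0.218 to 0.291). Igf2r was nearest to Lipa, Lamb1 and an entry named St6galnac2, a symbol not unique to that entry (0.196 to 0.295). The log2 fold changes of Lipa, Lamb1 and this entry were 3.37, 4.07 and 7.41, beside 3.65 for Igf2r. Those of Ace, Uaca and Col18a1 were 5.35, 5.36 and 6.76, beside 5.08 for Igf2. A near course thus did not always mean a near fold change. Igf1 was nearest to Fkbp9, Mpzl2 and Tmem87b (0.238 to 0.249), Igfbp2 to Npr2, Pigb and Pcdh1 (0.187 to 0.305), Igfbp4 to Gpc4, Rtraf and Syngr2 (0.187 to 0.224), and Igfbp5 to Celsr2, Mesd and Npc1 (0.116 to 0.201). Igfbp3 stood more alone, with Ntn4 at 0.42 the 1 gene within 0.5, where the other 8 genes compared had 52 to 349. Igfbp3 was at 4.74 CPM in endfeet library 6, from 11 counts, the fewest there of the genes compared. The measure gives every library the same weight, and the part of this library in the distance was not tested. Among the 10 genes themselves, the nearest pairs were Igf2 with Igfbp7 at 0.481, Igf2r with Igfbp2 at 0.484 and Igfbp2 with Igfbp4 at 0.487. Igfbp6 was not compared with all genes because endfeet library 6 held 0 counts.

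Other genes of the pathway were taken in lists of 79 genes. Of 71 tested, 16 were higher (22.5%), 9 were lower (12.7%) and 46 were not past the threshold, close to the 20.7% and 13.9% of all genes, and their median log2 fold change was 0.01. Among receptors and adaptors, 4 of 12 were higher and 0 lower. These were Insr, Insrr, an orphan relative of the insulin receptor, at a log2 fold change of 5.03 (adjusted p of 0.0157, edgeR), Grb10, an inhibitory adaptor of both receptors, at 2.38 (adjusted p of 3.2e-04, edgeR), and M6pr, the cation-dependent mannose 6-phosphate receptor, at 1.57 (adjusted p of 0.00856, edgeR). Insrr was at 0.192 ± 0.128 CPM (SD, n = 3) in whole astrocyte TRAP and at 5.98 ± 4.56 CPM (SD, n = 6) in endfeet TRAP, where its lowest library was at 0. The call of Insrr was lost without any 1 of the whole astrocyte libraries (adjusted p of 0.0557 to 0.0855, edgeR). The insulin receptor substrates Irs1 and Irs2 had log2 fold changes of -0.69 and -1.20 with adjusted p of 0.329 and 0.117 in edgeR's quasi-likelihood test. Irs2 passed the threshold in 3 of 18 alternatives, 1 of them without endfeet library 1 (adjusted p of 0.0398, edgeR).

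Of 7 proteases and regulators of the binding proteins tested, 2 were higher and 1 lower, beside 20.7% and 13.9% of all genes tested. Furin, a proprotein convertase, was higher by a log2 fold change of 3.08 (adjusted p of 8.6e-04, edgeR), and Ide, the insulin-degrading enzyme, which also degrades IGF2, was lower at -1.03 (adjusted p of 0.017, edgeR), a call that was lost without whole astrocyte library 1 (adjusted p of 0.147, edgeR). Stc1, an inhibitor of Pappa, was higher at 3.40 (adjusted p of 0.0359, edgeR), but 67.4 CPM in endfeet library 5 stood against a median of 9.13 CPM, and without that library the log2 fold change was 2.05 with an adjusted p of 0.107. The proteases Pappa, Pappa2 and Htra1, of which Pappa cleaves Igfbp4, had log2 fold changes of 0.22, -0.41 and -0.29, and Stc2, the other stanniocalcin, 2.39, with adjusted p of 0.140 to 0.915 in edgeR's quasi-likelihood test. Pappa and Pappa2 were at 0.894 to 1.28 CPM on average in both groups, and Igfals, with few counts, was not tested.

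Genes outside the family that carry an IGFBP domain were higher for 5 of 8 tested and lower for 0, beside 20.7% and 13.9% of all genes tested. The higher genes were Esm1, a proteoglycan of endothelial tip cells, Ccn2, a matricellular protein, and Ccn1, Ccn3 and Crim1. Ccn2 was at 4.45 ± 1.08 CPM (SD, n = 3) in whole astrocyte TRAP and at 57.1 ± 22.02 CPM (SD, n = 6) in endfeet TRAP, a log2 fold change of 3.77 with an adjusted p of 2.7e-04 in edgeR's quasi-likelihood test. Esm1 was at 0.0925 ± 0.160 CPM (SD, n = 3) and 7.09 ± 5.92 CPM (SD, n = 6), with an adjusted p of 0.0289 in the same test, which rose to 0.107 without whole astrocyte library 1 or 3.

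Downstream, the PI3K and AKT list had 1 of 18 genes higher and 3 lower, or 5.56% and 16.7%. The mTOR list had 3 of 12 higher and 1 lower, or 25.0% and 8.33%. In the RAS and MAPK list 1 of 12 was higher and 4 lower, or 8.33% and 33.3%. The shares over all genes tested were 20.7% and 13.9%, and the lists were not tested as sets. Pik3r3, a regulatory subunit of PI3K, was higher at a log2 fold change of 1.41, and Bad, a death-promoting target of AKT, and Foxo1, a transcription factor that AKT inactivates, were lower at -2.32 and -0.92. In edgeR's quasi-likelihood test, the adjusted p of Bad rose from 0.0123 to 0.0581 or 0.0593 without whole astrocyte library 2 or 3, and that of Foxo1 from 0.0166 to 0.118 or 0.0512 without whole astrocyte library 1 or 2. In the mTOR list, Eif4ebp2, a repressor of cap-dependent translation, was higher at 3.09 and Rheb, the GTPase that activates mTOR, lower at -2.40. Tsc2, which inhibits Rheb, was higher at 1.15 with an adjusted p of 0.0409 in edgeR's quasi-likelihood test and lost that call in 12 of 18 alternatives. In the RAS and MAPK list, Braf was higher at 1.007 with an adjusted p of 0.0257 in edgeR's quasi-likelihood test, which was 0.0723 to 0.114 without any 1 of the whole astrocyte libraries and 0.0729 without endfeet library 4, while the phosphatase Dusp6 and the kinase Map2k1 were lower at -2.04 and -1.89. Of the IGF2 mRNA-binding genes, 0 of 2 tested were past the threshold.

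**Figure D5:**
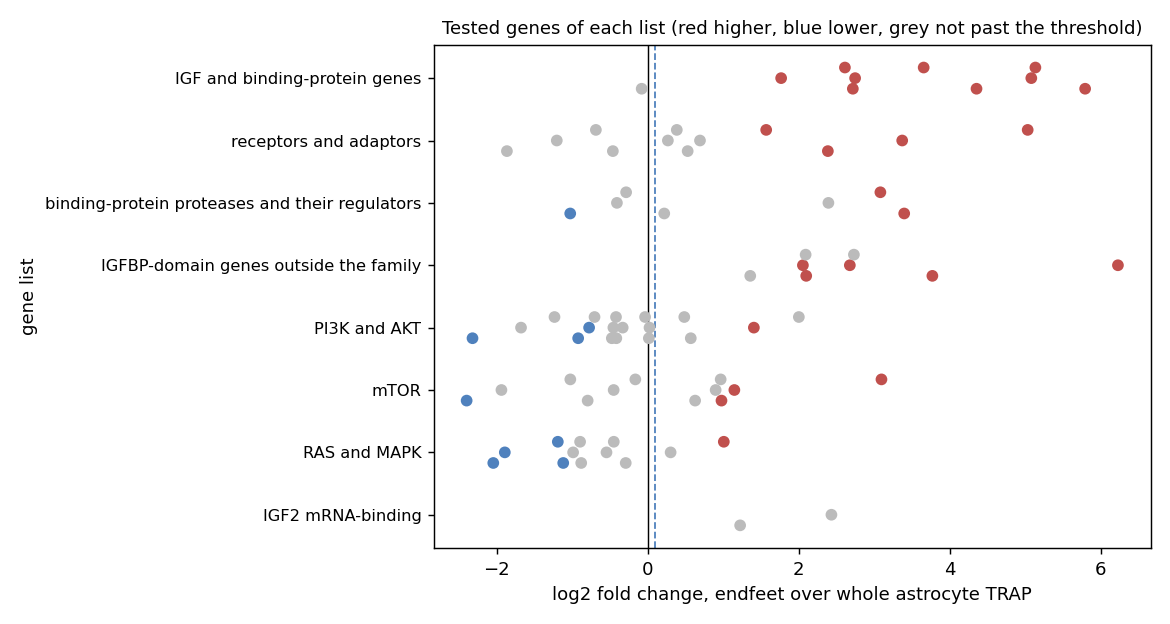
Log2 fold change between endfeet TRAP (n = 6) and whole astrocyte TRAP (n = 3) of each tested gene, 1 point per gene, for the 10 growth factor, receptor and binding-protein genes (top) and 7 lists of related genes, in red where higher, blue where lower and grey where not past the threshold. The top row lies almost wholly to the right of 0, the IGFBP-domain genes have 5 red points and 0 blue points, and the downstream lists lie on both sides of 0.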

How the data were processed

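The deposited values are raw counts of reads for each Ensembl transcript in 3 whole astrocyte and 6 endfeet TRAP libraries, which the authors obtained from amplified RNA by alignment to mm10 with Bowtie, removal of reads with several alignments and counting with HTSeq 0.5.3. Of 75466 transcripts, 73164 were matched to GENCODE M21 of the same build, in 22092 genes, and 2302 had no match and were not used. For each gene the transcript with the highest CPM, summed over libraries, was used. Per-length levels are counts divided by the length of that transcript and scaled like CPM. CPM was taken from gene totals, so that ratios of CPM can differ slightly from fitted fold changes.

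Groups were taken from the labels. The test was edgeR's quasi-likelihood test (version 4.0.16, R 4.3.3) on all 9 libraries after filterByExpr and TMM scaling, with p-values adjusted by Benjamini-Hochberg over the 14427 genes tested and a threshold of 0.05. The labels number the libraries as replicates. The paper's methods give a single whole brain for each whole astrocyte library and pooled mice for each endfeet library. P-values therefore measure the spread between libraries, whose units are unlike in the groups. The common dispersion was 0.0142 in whole astrocyte and 0.725 in endfeet TRAP, while the test uses a single value per gene. Alternatives were DESeq2 1.42.0, edgeR with DESeq2 size factors, at least 10 counts in every library, no filter but 1 count, counts summed over transcripts, the number series of the libraries as a covariate, endfeet libraries 4 to 6 only, a replicate block, limma 3.58.1 voom with group weights and each library left out. Each transcript as a separate feature, and endfeet libraries 1 to 3 against 4 to 6, were added after the data were seen. Scripts were tested on simulated data. Figures and tables were made in Python 3.11.15.

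The members and lists were chosen with earlier results of these data known. Named genes were all members, in each pathway list the 2 called genes with the largest absolute change in each direction, and Insr, Irs1, Irs2, Igfals, Pappa, Pappa2, Stc1, Stc2 and Htra1. Grb10, M6pr, Ccn1, Ccn3, Crim1, Polr2b, Igfbp1 and Ttr were named outside this rule after their values were seen. Genes alike were the 3 nearest for each member with at least 10 counts in each endfeet library. Promoter sequences came from RefSeq for all 10 members. H19 was not analysed here. One gene alike to a member is not reported here.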

Additional observations from a re-analysis of the deposited data

Results flagged for a closer look

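Among 38 sets of 6 endfeet libraries, 3 held a library whose gap to the nearest of the others was large for the range of the group, and chance marks about 1 in 20 such sets. Stc1 was at 67.4 CPM in endfeet library 5, far above the other endfeet libraries. Ccn2 was at 14.7 CPM in endfeet library 6, below the others. Eif4ebp2 was at 1297 CPM in endfeet library 6, above the others. None of the growth factor, receptor or binding-protein levels and shares was set apart in this way.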

How the results depend on the processing

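The 9 genes called higher stayed so, in the same direction, in all 19 alternatives (171 of 171 values), including each library left out, and the counts of 9 higher and 0 lower did not move. In 1 of these alternatives each transcript was a separate feature, and only the transcript that stood for the gene was read. Its counts are the same as in the main analysis. In that fit 2 of 8 Igf1 and 1 of 6 Igfbp4 transcripts passed the threshold, and every tested transcript of the other called genes. Igfbp6 was past the threshold in none of its 18 alternatives, with log2 fold changes from -1.50 in endfeet libraries 4 to 6 only to 0.31 with the replicate block. Its sign turned in 4 of them, at 0.31 with the replicate block, at 0.11 and 0.18 without endfeet library 2 or 6 (-0.71 to 0.18 with a library left out), and at 0.029 with each transcript as a separate feature. Pathway genes called higher, 16 in the main analysis, were 9 to 18 with a library left out, and 9 without each whole astrocyte library in turn. Those called lower, 9 in the main analysis, were 5 to 14 with a library left out (5 without whole astrocyte library 1 or 2, 14 without endfeet library 1), 14 with at least 10 counts in every library and 20 with limma voom. The cause was not tested. Pappa turned sign to -0.14 with the number series as covariate, -0.24 in endfeet libraries 4 to 6 only, -0.37 with the replicate block and -1.04 with limma voom, and Pappa2 to 0.17 with the replicate block. Libraries left out gave Pappa from -0.48 to 0.47 and Pappa2 from -1.23 to 0.29. Single pathway genes lost their call without 1 library as follows: Insrr, Stc1, Tsc2 and Braf without any of the whole astrocyte libraries (adjusted p of 0.0557 to 0.149), Esm1 without library 1 or 3 of these (0.107), Foxo1 without 1 or 2 (0.118 and 0.0512), Bad without 2 or 3 (0.0581 and 0.0593) and Ide without 1 (0.147). Stc1 also lost it without endfeet library 5, Braf without endfeet library 4 (0.0729), and Tsc2 without endfeet library 2, 3, 4 or 5 (0.0553 to 0.0797). Irs2 passed the threshold without endfeet library 1 (0.0398), with at least 10 counts in every library (0.0404) and with limma voom (0.0149), and Stc2 with DESeq2 (0.0421). The replicate block took the calls of Stc1 (1.72), Ide (-0.80) and Braf (0.72). It gave 9 and 0 calls among the 10 genes and 13 and 8 in the pathway lists. Same-numbered libraries did not deviate together (correlations of -0.03, 0.02 and 0.03), so the numbers were not read as pairs. The median of all genes moved from 0.10 to -0.15 in endfeet libraries 4 to 6 only, to -0.22 with the replicate block and to -0.29 with limma voom. Over all genes, calls were 4997 in the main analysis, 6263 with DESeq2, 8413 with limma voom and 3071 to 6022 with a library left out. Of the alternative values for the binding-protein shares, 13 moved by at least 1 SD and 65 did not. In endfeet library 6, the shallowest, Igfbp6 had 0 counts and Igfbp3 11.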
